A study of Mus musculus with 9 samples.

Results

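RNA of epigonadal white adipose tissue (eWAT) was compared between 3 tumour bearing and 3 untreated mice, which are 6 of the 9 libraries of the series. The 6 libraries were chosen by their labels alone: tumour bearing mice 17, 21 and 22, and untreated mice 4, 7 and 10. The tumour bearing mice carried an orthotopic tumour, placed in the mammary fat pad, of MDA-MB-231, a line of human breast cancer cells that lack oestrogen, progesterone and HER2 receptors. Both groups were sampled at week 12, and per the study's methods both were female NSG mice. NSG is an immunodeficient NOD strain with the scid mutation and no interleukin 2 receptor gamma chain, so these mice lack mature T and B cells and natural killer cells, and the labels give the genotype of every mouse as wild type. The model therefore holds 1 human cell line in hosts without adaptive immunity, and the labels say no more of the controls than that they were untreated. The other 3 libraries, of mice injected with extracellular vesicles (EV) of these cells, entered the test only to estimate the spread between mice. Each library carries its own mouse number.

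eWAT is the fat pad beside the ovary, oviduct and uterus. Its fat cells store triglyceride and secrete hormones such as leptin and adiponectin, and between them lie vessels, fibroblasts, mesothelium and macrophages. Cancer cachexia, the wasting that the study asks about, is known for loss of fat and of skeletal muscle. Skeletal muscle fibres are built from sarcomeres, in which myosin pulls on actin when calcium binds troponin, and the proteins of this machinery are encoded by genes that fat cells barely use. Transcription of these genes in muscle is driven by the MyoD family, which binds E-boxes, and by MEF2 factors. Genes of 5 lists on skeletal muscle (contractile proteins, Z-disc and fibre structure, calcium handling, energy metabolism isoforms, and myogenic regulators) were set apart below, so that the other genes could be described on their own.

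The genes that moved most together were the muscle ones, so the short stretches below are shown for letters their promoters share. Promoter windows from RefSeq (build GRCm38.p6, 250 bases before to 50 after the start) matched 27 of the 32 muscle list genes called higher below. The E-box CAGCTG, which reads the same on both strands, was present in 16 of these 27 windows (59.3%), against 16.1% of the windows of 12690 tested genes and 16.3% of 26742 windows of all genes. The MEF2 consensus, searched on both strands, was present in 8 (29.6%), against 1.90% of tested genes and 3.21% of all windows, and a match of one cannot overlap a match of the other. Capitals mark the motif, first the E-box in 4 genes and then the MEF2 consensus in 3, each written 5′ to 3′ on the strand of its gene.
Myh4, chr11:67237733-67237762, plus strand: ccgcagctaggaCAGCTGaggtggctgctg
Atp2a1, chr7:126463111-126463140, minus strand: cctcataaggacCAGCTGggggctgggggg
Mb, chr15:77022903-77022932, minus strand: agaattgggtttCAGCTGctggcagtggct
Ppp1r27, chr11:120551328-120551357, minus strand: accttctaggtcCAGCTGcggagagggagt
Myh4, chr11:67237620-67237649, plus strand: ccctgtcaaaTTATTTATAGatgacaagaa
Myh1, chr11:67199881-67199910, plus strand: acaactcaaaTTATTTATAGgagattgatt
Dusp27, chr1:166127925-166127954, minus strand: gggccagaggCTAAATTTAGagactggcta
A match describes the letters of a window and does not show a bound site. The 27 were picked by the muscle lists as well as by the call. Muscle list genes that were not called were not counted apart, so the shares cannot be tied to the call. Ppp1r27 and Dusp27 are among the 7 genes called higher outside the muscle lists, of which 3 windows of 7 held an E-box and 1 the MEF2 consensus.

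Libraries held 20097628 to 26149263 rounded counts. Levels below are counts relative to the library total, scaled by TMM (CPM), a scale that compares 1 gene between libraries and not genes of different length with each other. They are given in the order of tumour bearing mice 17, 21 and 22 and of untreated mice 4, 7 and 10. The defining fat cell markers were present in every library but differed widely among the untreated mice: Adipoq, which encodes adiponectin, was at 4350.1, 2969 and 3592 CPM in tumour bearing mice, against 4381, 131 and 334 CPM in untreated mice. All 23 adipocyte genes measured were above 0 in each library. Together they summed to 95800.3, 99343 and 79225 CPM in tumour bearing mice, against 129649, 4528 and 10236 CPM in untreated mice. Genes of smooth muscle were highest in untreated 7 and summed to 786, 1093 and 2224 CPM in tumour bearing mice, against 1058, 16885 and 3619 CPM in untreated mice. Genes of the ovary were highest in untreated 10 and summed to 151, 128 and 191 CPM in tumour bearing mice, against 135, 117 and 11514 CPM in untreated mice. Untreated 4 was thus the only untreated library with fat cell markers at the level of the tumour bearing libraries and without these other tissues, and results are also given against it alone. Among the tumour bearing libraries mouse 21 stood apart in genes of neutrophils and of stress, which are given below with and without it. In bulk samples fewer cells of a type and less RNA per cell cannot be told apart.

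Across the genome 17876 genes were tested with edgeR's quasi-likelihood test, and genes were called at an adjusted p under 0.05. In tumour bearing eWAT 39 genes (0.218%) rose and 0 (0%) fell, where the smallest adjusted p of a lower gene was 0.204. Of the 39, 32 belonged to the muscle lists and 7 did not. At an unadjusted p under 0.05 there were 631 higher genes (3.53%) and 1488 lower genes (8.32%). The groups did not overlap, with every tumour bearing library above every untreated one, for 1009 genes (5.64%), and with every tumour bearing library below, for 1099 genes (6.15%). DESeq2 on the same counts called 242 genes higher (1.35%) and 501 lower (2.8%), all 39 edgeR calls among the higher ones. The median log2 fold change of all genes tested was -0.12. These p-values rest on the spread among these 9 libraries, which also differ in tissue content. In sets inferred from the deposited values, tumour bearing 17 and 22 share no set with an untreated library, and untreated 7 stands alone. Group and set therefore cannot be fully told apart.

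**Figure D1:**
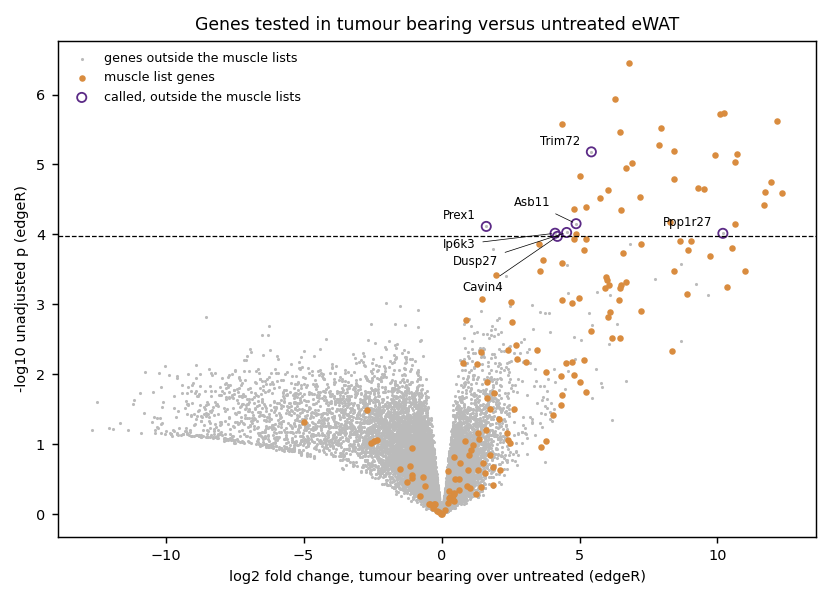
Log2 fold change (tumour bearing over untreated, horizontal axis) against -log10 of the unadjusted edgeR p (vertical axis) for 17876 genes, with muscle list genes in orange and the 7 called genes outside these lists ringed and named. The dashed line is the largest p among the 39 called genes; all 39 lie to the right, and most of the points above the line are orange.

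Skeletal muscle genes made up most of the genes that edgeR called higher in tumour bearing eWAT. By wider counts they were the smaller part. DESeq2 called 88 genes higher in the muscle lists and 154 outside them. At an unadjusted edgeR p under 0.05 the numbers were 98 and 533. Over all genes tested, 0.218% rose, 5.64% were higher without overlap and 1.35% were called higher by DESeq2. Of 163 members of the 5 lists that were tested, 32 rose, and DESeq2 called 88 higher and 0 lower. For 105 of these members the groups did not overlap with the tumour bearing libraries higher, and for 0 in the other direction. Their median log2 fold change was 3.45, against -0.13 for the 17713 tested genes outside the lists. In bulk tissue, muscle fibres in a sample and muscle genes expressed by other cells cannot be told apart. Among called muscle genes tumour bearing 21 was the highest library for 28 of 32 and tumour bearing 22 for the other 4, and the median ratio of tumour bearing 21 to tumour bearing 17 was 2.01.

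The contractile proteins had the largest median of the 5 lists. Of 37 tested, 14 rose and 34 had groups that did not overlap, beside 5.64% of all genes, and the median log2 fold change was 6.46. Myh4, the myosin heavy chain of the fastest fibres, was at 322, 1348 and 312 CPM in tumour bearing mice, against 0.392, 0.0346 and 0 CPM in untreated mice, with a log2 fold change of 12.34 ± 1.48 (SE, adjusted p = 0.0191). Myh1, another fast fibre myosin, was at 153, 308 and 326 CPM in tumour bearing mice, against 0.280, 0 and 0 CPM in untreated mice (11.68 ± 1.48, adjusted p = 0.0249). The groups of both genes were apart by more than 100-fold. Tnnc2, the calcium-binding troponin of fast fibres, was at 160.1, 409 and 217 CPM in tumour bearing mice, against 0.280, 0.380 and 0.0377 CPM in untreated mice (10.11 ± 0.87, adjusted p = 0.00757). Myl2, the regulatory light chain of slow fibres and heart ventricle, was even among the tumour bearing libraries, at 13.8, 15.9 and 14.6 CPM in tumour bearing mice, against 0.0561, 0 and 0 CPM in untreated mice (9.52 ± 1.13, adjusted p = 0.0188). Both fast and slow fibre genes were among the called ones, with Myh2, Mylpf, Actn3, Tnni1, Tnnc1, Ttn, Neb, Nrap and Klhl41 among the others called. Of the heart muscle markers, Nppa, an atrial hormone gene, was at or near 0 in both groups, at 0, 0.116 and 0 CPM in tumour bearing mice, against 0, 0.0691 and 0.0754 CPM in untreated mice. The other heart markers were not absent. Myh6, a heart myosin, was at 3.14, 5.27 and 4.54 CPM in tumour bearing mice, against 0.112, 0.484 and 3.06 CPM in untreated mice. Tnnt2 was at 112 CPM in untreated 7 and Tnni3 at 27.4 CPM in untreated 10, each above every tumour bearing library. In untreated 4 Tnnt2 was at 0.0561 CPM and Tnni3 at 0 CPM.

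Genes of the Z-disc, the plate that anchors actin filaments, and of fibre structure followed, with 8 of 42 called. Groups did not overlap for 25, beside 5.64% of all genes, and the median log2 fold change was 2.45. Csrp3, muscle LIM protein, was at 15.9, 29.03 and 18.9 CPM in tumour bearing mice, against 0, 0 and 0 CPM in untreated mice, and with 0 counts in the untreated libraries it was at least 166-fold higher than a limit of 3 counts in each library (adjusted p = 0.0169). Xirp2, an actin-binding repeat protein of the Z-disc, was at 19.7, 52.96 and 25.3 CPM in tumour bearing mice, against 0.0561, 0 and 0 CPM in untreated mice (10.69 ± 1.08, adjusted p = 0.00999). Myoz1, a calsarcin that tethers calcineurin at the Z-disc, was at 30.3, 74.3 and 32.8 CPM in tumour bearing mice, against 0.0561, 0 and 0.0755 CPM in untreated mice (9.92 ± 1.01, adjusted p = 0.00999). These 3 genes had at most a few counts in any untreated library, so their levels there carry little precision. Myoz2, Myoz3, Synpo2l, Asb5 and Smyd1 were also called. The summed level of this list did not separate the groups (1454, 2477 and 2029.7 CPM in tumour bearing mice, against 669, 4529 and 1025 CPM in untreated mice), and untreated 7, the library with smooth muscle transcripts, was highest.

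Of the calcium handling and excitation genes 5 of 34 rose, 19 did not overlap, beside 5.64% of all genes, and the median log2 fold change was 2.78. Atp2a1, the calcium pump that refills the sarcoplasmic reticulum of fast fibres, was at 377, 1185 and 458 CPM in tumour bearing mice, against 0.280, 0.0691 and 0.905 CPM in untreated mice (10.62 ± 1.11, adjusted p = 0.0113). Pvalb, the calcium buffer parvalbumin of fast fibres, was at 55.3, 169 and 42.3 CPM in tumour bearing mice, against 0.0561, 0 and 0 CPM in untreated mice (12.15 ± 1.07, adjusted p = 0.00757). Tumour bearing 21 was the highest library in both. Ryr1, the calcium release channel, Casq1, the calcium store protein, and Hrc were also called. Of the energy metabolism isoforms 5 of 32 rose and 21 did not overlap, beside the same 5.64% of all genes (median 1.85). Mb, the oxygen store myoglobin, was at 111, 158 and 174 CPM in tumour bearing mice, against 0.336, 0.0691 and 0 CPM in untreated mice (10.23 ± 0.87, adjusted p = 0.00757). Ckmt2, the mitochondrial creatine kinase of striated muscle, was at 15.7, 24.6 and 14.4 CPM in tumour bearing mice, against 0, 0 and 0 CPM in untreated mice, and it was at least 142-fold higher than the same limit (adjusted p = 0.0191). Smtnl1, a smoothelin-like protein of muscle, was at 6.27, 10.4 and 9.08 CPM in tumour bearing mice, against 0, 0 and 0 CPM in untreated mice, and it was at least 67.1-fold higher than it (adjusted p = 0.0386). Pgam2, the phosphoglycerate mutase of muscle, and Art1 rose as well. Smtnl1 and Art1 were counted in this list, although neither is an isoform of energy metabolism. Of 18 myogenic regulators and satellite cell genes 0 were called by edgeR (median 0.92). At an unadjusted p under 0.05, 5 were higher, beside 3.53% of all genes, and DESeq2 called 4 higher, beside 1.35%. Groups did not overlap for 6, beside 5.64% of all genes.

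**Figure D2:**
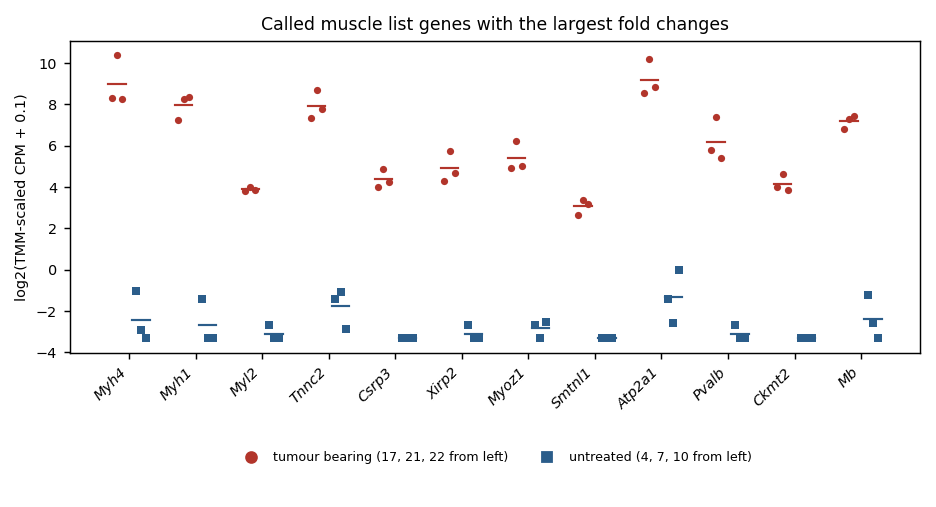
Level of the 12 called muscle list genes with the largest fold changes, as log2(CPM + 0.1), with 1 point per mouse (tumour bearing mice as circles, left; untreated mice as squares, right) and lines for the group means. Csrp3, Smtnl1 and Ckmt2 sit on the floor of the scale in all 3 untreated mice, with 0 counts.

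Muscle genes were also higher against untreated 4 alone, where the median log2 fold change was 4.45 for the 5 lists and 7.78 for the contractile proteins. The summed contractile level was 3563, 9135 and 4752 CPM in tumour bearing mice, against 188, 1981 and 504 CPM in untreated mice. These groups did not overlap, and a 2-sided exact permutation test gave p = 0.1, the smallest that 3 against 3 libraries allow. Untreated 7 held the highest untreated sum. Acta1, skeletal alpha-actin, was at 811, 1834 and 935 CPM in tumour bearing mice, against 5.44, 287 and 4.23 CPM in untreated mice. Ckm, muscle creatine kinase, was at 335, 809 and 355 CPM in tumour bearing mice, against 0.841, 88.7 and 2.19 CPM in untreated mice. Both were thus well above the other untreated libraries in untreated 7, whereas Myh4 was at 0.0346 CPM there. The number of calls depended on single libraries. Of the 39 called genes 8 stayed called without tumour bearing 22, 13 without tumour bearing 21, 16 without tumour bearing 17, 17 without untreated 10, 22 without untreated 4 or untreated 7, 23 without EV 41, 25 without EV 36 and 32 without EV 37. Actn3, Mb, Tnnc2, Pvalb, Pgam2, Mylpf and Neb were among the genes that stayed called without any 1 of the 9 libraries. With untreated 4 as the only untreated library edgeR called 0 genes (561 higher at an unadjusted p under 0.05, of which 129 were muscle list genes), and without the 3 libraries that held ovary transcripts it called 0 as well (429, of which 100 were muscle list genes). With a term for batches inferred from the deposited values, which no label names, 4 muscle genes were called, 3 of them among the 39. The median of the 5 lists was then 4.26.

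Outside the muscle lists 7 genes rose, and 6 of them are also known from muscle, although the lists did not hold them. Trim72 (ENSMUSG00000042828), the membrane repair protein of muscle fibres, was at 16.2, 30.5 and 26.1 CPM in tumour bearing mice, against 0.841, 0.588 and 0.264 CPM in untreated mice, with a log2 fold change of 5.43 ± 0.55 (SE, adjusted p = 0.00999). Cavin4 (ENSMUSG00000028348), a caveolar coat protein of muscle, was at 4.26, 7.76 and 5.66 CPM in tumour bearing mice, against 0.448, 0.207 and 0.302 CPM in untreated mice (4.20 ± 0.61, adjusted p = 0.0490). Asb11 (ENSMUSG00000031382), an ankyrin repeat protein with a SOCS box, was at 5.43, 10.6 and 4.44 CPM in tumour bearing mice, against 0.168, 0.207 and 0.302 CPM in untreated mice (4.88 ± 0.67, adjusted p = 0.0386). In these 3 genes every untreated library was under 1 CPM. Dusp27 (ENSMUSG00000026564), an atypical dual-specificity phosphatase that zebrafish need for ordered myofibrils, was at 4.59, 5.33 and 4.25 CPM in tumour bearing mice, against 0.112, 0.138 and 0.340 CPM in untreated mice (4.53 ± 0.65, adjusted p = 0.0467). Ip6k3 (ENSMUSG00000024210), an inositol hexakisphosphate kinase of muscle and brain, was at 3.70, 6.43 and 5.23 CPM in tumour bearing mice, against 0.336, 0.311 and 0.226 CPM in untreated mice (4.11 ± 0.59, adjusted p = 0.0467). Ppp1r27 (ENSMUSG00000025129), a dysferlin-interacting protein, was at 5.54, 5.91 and 7.72 CPM in tumour bearing mice, against 0, 0 and 0 CPM in untreated mice, and it was at least 49.9-fold higher than the limit of 3 counts in each library (adjusted p = 0.0467). As with the muscle lists, tumour bearing 21 was the highest library for 5 of these 6 genes and tumour bearing 22 for Ppp1r27. Of the 6, Trim72 stayed called without any 1 library other than tumour bearing 21 or 22 (adjusted p up to 0.0678), and the other 5 were not called without any 1 of the 9.

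Prex1 (ENSMUSG00000039621) was the single called gene that is not known as a muscle gene. It encodes an exchange factor that activates the small GTPase Rac downstream of G-protein and phosphoinositide signals and is known best from neutrophils. Its level was 31.3, 46.6 and 36.6 CPM in tumour bearing mice, against 10.99, 12.8 and 13.4 CPM in untreated mice. Every tumour bearing library was more than 2-fold above every untreated one. The log2 fold change was 1.62 ± 0.23 (SE, adjusted p = 0.0405), and 1.79 against untreated 4 alone. The call was lost when any 1 of the 9 libraries was left out, at adjusted p from 0.0704 to 0.220 and log2 fold changes from 1.45 to 1.75. Without tumour bearing 21, the library with the highest Prex1, the gene was at 1.45 on the log2 scale (adjusted p = 0.159).

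Among the Rac exchange factors and Rac genes, the family of Prex1, it was the single gene to pass the edgeR test. Of 21 tested members 1 was called by edgeR and 5 by DESeq2, beside 0.218% and 1.35% of all genes called higher. Groups did not overlap for 5, beside 5.64% of all genes, and the median log2 fold change was 0.28. The members with the smallest p after Prex1 are those of blood cells. Dock2, which drives leukocyte migration, was at 23.02, 27.7 and 29.8 CPM in tumour bearing mice, against 9.53, 5.88 and 4.11 CPM in untreated mice. Vav1, the exchange factor of blood cell receptors, was at 10.8, 35.5 and 15.8 CPM in tumour bearing mice, against 6.39, 2.49 and 2.87 CPM in untreated mice. Rac2, the Rac of blood cells, was at 15.6, 126 and 21.1 CPM in tumour bearing mice, against 10.5, 3.80 and 6.04 CPM in untreated mice. The groups of all 3 did not overlap, but none passed the edgeR test (adjusted p = 0.379, 0.418 and 0.418), and tumour bearing 21 was far above the others in Rac2.

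Genes on both sides of the threshold included 674 outside the muscle, ovary and smooth muscle lists that were higher in every tumour bearing library than in any untreated one, with a mean of at least 5 CPM. Being without overlap was a condition for the genes named next and is no result about them. Of these, 310 were at an unadjusted p under 0.05 and DESeq2 called 102. The 12 with the smallest edgeR p were Trim72, Prex1, Hfe2, Gfpt2, Selp, Abra, Tnfrsf1b, Pik3ap1, Eef1a2, Mylk4, Mss51 and Gas7. Among them Hfe2 (hemojuvelin, made in muscle and liver), Abra (an actin-binding protein of muscle), Eef1a2 (the elongation factor of muscle and neurons), Mylk4 (a myosin light chain kinase) and Mss51 (a zinc finger protein of muscle) are again known from muscle, with log2 fold changes of 3.26 to 7.74 and adjusted p of 0.0539 to 0.212. The other 5 (Gfpt2, Selp, Tnfrsf1b, Pik3ap1 and Gas7) did not pass the edgeR test either.

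Gfpt2 encodes the enzyme that feeds glutamine and fructose 6-phosphate into the hexosamine pathway for protein glycosylation. It was at 43.1, 64.7 and 71.1 CPM in tumour bearing mice, against 13.2, 17.98 and 18.1 CPM in untreated mice, a log2 fold change of 1.86 ± 0.29 (SE, adjusted p = 0.0605), and 2.18 against untreated 4 alone. Selp, the adhesion receptor P-selectin that activated endothelium and platelets show to passing leukocytes, was at 28.3, 36.4 and 49.4 CPM in tumour bearing mice, against 11.3, 6.22 and 5.36 CPM in untreated mice (2.32 ± 0.41, adjusted p = 0.114). In both genes the lowest tumour bearing library was more than 2-fold above the highest untreated one. Tnfrsf1b, the second receptor of tumour necrosis factor, was at 47.04, 59.7 and 49.7 CPM in tumour bearing mice, against 25.8, 13.4 and 18.4 CPM in untreated mice (1.44 ± 0.27, adjusted p = 0.141). Pik3ap1, an adaptor that links B cell and Toll-like receptors to phosphoinositide 3-kinase, was at 26.5, 70.6 and 32.7 CPM in tumour bearing mice, against 9.92, 7.92 and 12.3 CPM in untreated mice (2.11 ± 0.39, adjusted p = 0.141). Gas7, a membrane-bending protein first known from growth-arrested cells and neurons, was at 88.99, 84.8 and 119.6 CPM in tumour bearing mice, against 30.5, 36.6 and 41.6 CPM in untreated mice (1.43 ± 0.30, adjusted p = 0.249). DESeq2 called all 5, and against untreated 4 alone their log2 fold changes were 1.01 to 2.18.

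DESeq2 called 154 genes higher outside the muscle lists. The groups of 152 of them did not overlap, 134 were more than 2-fold above untreated 4, and 88 of these had a mean of at least 5 CPM. The 10 with the smallest DESeq2 p that were not yet named included Txlnb, Pnoc, Ankrd33b, Mapkapk2, Usp13, Akna, Itgal, Xylt2 and Itgam, of which Txlnb is a muscle taxilin. Mapkapk2, the kinase that p38 activates to stabilise cytokine mRNAs, was at 243, 204 and 198 CPM in tumour bearing mice, against 116, 105 and 99.6 CPM in untreated mice. Xylt2, the enzyme that starts the sugar chains of proteoglycans, was at 43.3, 53.4 and 44.05 CPM in tumour bearing mice, against 29.5, 22.6 and 28.3 CPM in untreated mice. Akna, an AT-hook protein, was at 15.1, 14.9 and 16.8 CPM in tumour bearing mice, against 7.79, 9.33 and 9.47 CPM in untreated mice. These 3 genes varied little within a group and differed by less than 3-fold between groups. Usp13, a deubiquitinating enzyme, was at 8.74, 10.95 and 13.9 CPM in tumour bearing mice, against 2.07, 3.91 and 3.47 CPM in untreated mice. Ankrd33b, an ankyrin repeat protein, was at 5.82, 9.68 and 8.40 CPM in tumour bearing mice, against 3.14, 2.21 and 2.34 CPM in untreated mice. The leukocyte genes Itgam and Itgal had a different shape, with tumour bearing 21 well above mice 17 and 22. Itgam, the integrin alpha M of myeloid cells, was at 50.1, 180.4 and 62.7 CPM in tumour bearing mice, against 19.1, 14.3 and 17.6 CPM in untreated mice. Itgal, the integrin alpha L of leukocytes, was at 6.22, 27.8 and 4.64 CPM in tumour bearing mice, against 1.51, 0.899 and 1.43 CPM in untreated mice. Pnoc, the precursor of the neuropeptide nociceptin, had the opposite order among tumour bearing mice, lowest in mouse 21, at 11.1, 2.49 and 34.5 CPM in tumour bearing mice, against 0.505, 0.311 and 0.905 CPM in untreated mice.

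**Figure D3:**
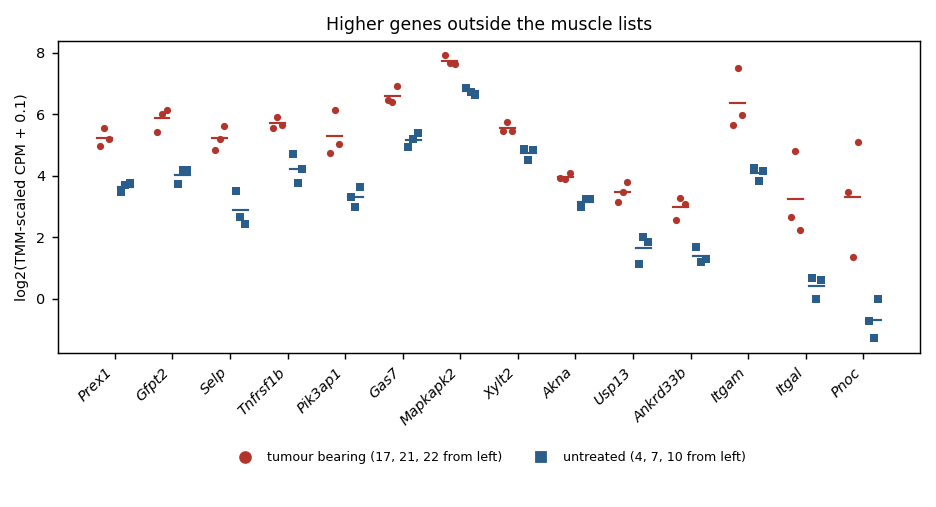
Level of 14 genes outside the muscle lists that were higher in tumour bearing mice, as log2(CPM + 0.1), with 1 point per mouse (tumour bearing circles left, untreated squares right) and lines for the group means. Prex1 alone of these 14 passed the edgeR test, and in Itgam and Itgal the circle of mouse 21 stands above those of mice 17 and 22.

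Macrophage genes were higher in most of their members. Of 22 tested, 18 had groups that did not overlap, beside 5.64% of all genes, and 0 were called by edgeR. At an unadjusted p under 0.05, 13 were higher and 1 lower, beside 3.53% and 8.32% of all genes. DESeq2 called 4 higher, beside 1.35%. Their median log2 fold change was 1.62, and 0.93 against untreated 4 alone. Adgre1, the macrophage surface protein F4/80, was at 82.05, 356 and 113 CPM in tumour bearing mice, against 51.5, 20.9 and 17.3 CPM in untreated mice (2.62 ± 0.69, adjusted p = 0.418). Mpeg1, the pore-forming protein perforin-2 of phagocytes, was at 57.9, 90.6 and 121 CPM in tumour bearing mice, against 45.2, 19.98 and 27.1 CPM in untreated mice. Ccr2, the chemokine receptor of incoming monocytes, was at 8.51, 5.50 and 19.1 CPM in tumour bearing mice, against 4.09, 1.73 and 2.41 CPM in untreated mice. In 19 of the 22 genes untreated 4 was the highest untreated library, and it was close to tumour bearing 17 for Mpeg1. The list summed to 2133, 4154 and 2902 CPM in tumour bearing mice, against 1583, 1223 and 648 CPM in untreated mice, so its groups did not overlap, with p = 0.1 by exact permutation. The fat cell markers were also highest in untreated 4 among the untreated libraries, but untreated 7 lay below untreated 10, unlike in the macrophage sum. Their sums were 79225 to 99343 CPM in tumour bearing mice, against 129649, 4528 and 10236 CPM in untreated mice. The part of the fat cell content in the macrophage result was not tested.

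Complement genes gave a similar picture, with 10 of 20 not overlapping, beside 5.64% of all genes. At an unadjusted p under 0.05, 9 were higher, beside 3.53% of all genes. DESeq2 and edgeR called 0, and the median log2 fold change was 1.06, or 0.66 against untreated 4 alone. C1qa, a chain of the C1q recognition molecule that macrophages make, was at 214, 336 and 282 CPM in tumour bearing mice, against 141, 53.8 and 47.99 CPM in untreated mice (1.77 ± 0.62, adjusted p = 0.418). C3ar1, the receptor of the C3a fragment, was at 30.6, 57.8 and 40.8 CPM in tumour bearing mice, against 22.03, 5.88 and 7.58 CPM in untreated mice. Cfp, the complement activator properdin, was at 55.4, 196 and 72.8 CPM in tumour bearing mice, against 53.4, 20.4 and 29.99 CPM in untreated mice. C1qc, another C1q chain, was at 169, 310.0 and 219.7 CPM in tumour bearing mice, against 122, 42.8 and 43.3 CPM in untreated mice. For these 4 genes untreated 4 was the untreated library nearest to the tumour bearing ones.

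Endothelial genes were higher for 21 of 22 members by sign, with 8 not overlapping (beside 5.64% of all genes) and 0 called by edgeR. At an unadjusted p under 0.05, 9 were higher, beside 3.53% of all genes, and DESeq2 called 2 higher, beside 1.35%. The median log2 fold change was 1.08, and 0.50 against untreated 4 alone. Vwf, the von Willebrand clotting factor, was at 169, 117 and 216 CPM in tumour bearing mice, against 77.2, 70.2 and 28.9 CPM in untreated mice (1.51 ± 0.40, adjusted p = 0.418). Tie1, a partner of the angiopoietin receptor, was at 90.2, 72.6 and 91.6 CPM in tumour bearing mice, against 55.8, 31.7 and 30.8 CPM in untreated mice. Tek, that receptor, was at 82.3, 49.3 and 90.8 CPM in tumour bearing mice, against 44.6, 30.3 and 24.03 CPM in untreated mice. The groups of these 3 genes did not overlap. Flt1, a receptor of vascular endothelial growth factor, was at 179, 86.97 and 207 CPM in tumour bearing mice, against 88.5, 44.2 and 23.1 CPM in untreated mice, where the groups overlapped. Tumour bearing 22 was the highest tumour bearing library in 17 of the 22 genes and tumour bearing 21 in 5, against 28 of the 32 called muscle genes that were highest in tumour bearing 21. Selp was highest in tumour bearing 22 too. Untreated 4, the untreated library with the most fat cell transcripts, was the highest untreated library in 20 of the 22 endothelial genes, and the part of the fat cell content in this result was not tested.

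Tumour bearing 21 stood apart in genes of acute inflammation and stress. Neutrophil genes had a median log2 fold change of 2.18 over 14 members, and 1.495 without tumour bearing 21. Groups did not overlap for 6 of the 14, beside 5.64% of all genes. The list summed to 91.1, 469 and 130.04 CPM in tumour bearing mice, against 58.5, 46.1 and 611 CPM in untreated mice, so untreated 10 was the highest library by its sum, and members ran down to a log2 fold change of -5.30. S100a9, a calprotectin subunit that fills neutrophils, was at 7.90, 67.2 and 18.8 CPM in tumour bearing mice, against 5.94, 0.242 and 0.528 CPM in untreated mice. Ngp, a neutrophil granule protein, was at 0.952, 22.7 and 0.684 CPM in tumour bearing mice, against 0.392, 0.0691 and 0 CPM in untreated mice. Csf3r, the receptor of granulocyte colony-stimulating factor, was at 5.04, 26.3 and 11.8 CPM in tumour bearing mice, against 5.94, 1.14 and 2.57 CPM in untreated mice. In all 3 tumour bearing 21 was highest by more than 2-fold. Saa3, an acute phase serum amyloid of inflamed fat, was at 1.68, 504 and 5.81 CPM in tumour bearing mice, against 2.47, 0.346 and 4.23 CPM in untreated mice. The acute phase and cytokine list had a median of 1.39 with this library and 0.65 without it. Fosb, a transcription factor switched on within minutes of a stimulus, was at 2.18, 93.2 and 1.32 CPM in tumour bearing mice, against 3.25, 1.90 and 1.70 CPM in untreated mice. Atf3, a factor of the stress response, was at 13.7, 72.2 and 10.6 CPM in tumour bearing mice, against 10.3, 7.81 and 3.43 CPM in untreated mice. Without tumour bearing 21 the log2 fold change of Fosb turned to -0.38, against 3.82 ± 1.47 with it. Mt2, a metal-binding protein induced by glucocorticoids, was at 121, 706 and 159 CPM in tumour bearing mice, against 158, 54.2 and 105 CPM in untreated mice. Mt1, another metallothionein, was at 166, 886 and 179 CPM in tumour bearing mice, against 241, 85.6 and 148 CPM in untreated mice. Mice 17 and 22 lay close to or within the untreated range for both. The 18 glucocorticoid-responsive genes had a median of 0.88 with tumour bearing 21 and 0.15 without it. Of the neutrophil, acute phase, glucocorticoid and immediate early lists 0 genes passed the edgeR test, 7, 4, 2 and 2 were higher and 1, 0, 0 and 2 lower at an unadjusted p under 0.05, and DESeq2 called 2, 0, 0 and 0 higher. Over all genes, 3.53% were higher and 8.32% lower at an unadjusted p under 0.05, and DESeq2 called 1.35% higher. Of the 22 immediate early and heat shock genes 10 were negative, down to -2.57 on the log2 scale. The median of that list was 0.36 with tumour bearing 21 and -0.48 without it. The contractile median was 5.999 without this library.

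Genes of fat cells overlapped between the groups. All 23 adipocyte genes tested had positive fold changes with a median of 1.01, but 0 had groups that did not overlap and 0 were at an unadjusted p under 0.05, and against untreated 4 alone the median was -0.36. The sign of the median turned in the same way for lipolysis (0.85 and -0.34), lipogenesis and triglyceride synthesis (0.46 and -0.66), fatty acid oxidation (0.77 and -0.20) and the nuclear-encoded subunits of oxidative phosphorylation (0.61 and -0.13). The pairs give list medians: the first value is the median log2 fold change against all 3 untreated libraries and the second that against untreated 4. Lep, which encodes leptin, was at 247, 26.6 and 61.5 CPM in tumour bearing mice, against 49.1, 2.25 and 28.1 CPM in untreated mice (2.08 ± 1.47, adjusted p = 0.529), with groups that overlapped.

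The median of the thermogenic genes kept its sign, although 9 of 29 members were negative, down to -2.85 on the log2 scale. Of the 29, 8 were without overlap in the higher direction and 0 in the lower, beside 5.64% and 6.15% of all genes. At an unadjusted p under 0.05, 3 were higher and 2 lower, beside 3.53% and 8.32% of all genes. DESeq2 called 1 higher, beside 1.35% of all genes, and edgeR 0. The median was 0.84 against all untreated libraries and 0.76 against untreated 4 alone, and 0.49 without tumour bearing 21. Cidea, a lipid droplet protein of brown and beige fat, was at 64.2, 141 and 128 CPM in tumour bearing mice, against 39.2, 4.15 and 6.60 CPM in untreated mice (2.74 ± 0.93, adjusted p = 0.418). Ppargc1a, the coactivator of mitochondrial genes, was at 8.85, 23.8 and 5.66 CPM in tumour bearing mice, against 4.48, 3.73 and 1.58 CPM in untreated mice (1.96 ± 0.63, adjusted p = 0.418). Pdk4, the kinase that turns off pyruvate dehydrogenase and is abundant in fasting muscle and fat, was at 199, 890.4 and 380.0 CPM in tumour bearing mice, against 156, 123 and 21.9 CPM in untreated mice. Ppargc1a and Pdk4 were highest in tumour bearing 21, as were most called muscle genes and the stress genes above. Both are also expressed by muscle fibres, and Pdk4 is also among the glucocorticoid-responsive genes. What raised them was not tested. Ucp1, the uncoupling protein that defines thermogenic fat cells, was at 7.84, 43.9 and 27.5 CPM in tumour bearing mice, against 23.2, 0.207 and 0.641 CPM in untreated mice, with untreated 4 inside the tumour bearing range. Zic1, a marker of classical brown fat, was at 0.224 CPM or less in all 6 libraries.

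Of the genes of leptin and JAK-STAT signalling, a pathway the study asks about, 0 of 17 passed the edgeR test. At an unadjusted p under 0.05, 4 were higher, beside 3.53% of all genes, and DESeq2 called 2 higher, beside 1.35%. Groups did not overlap for 3 in the higher direction and 2 in the lower, beside 5.64% and 6.15% of all genes. Stat3, the transcription factor that leptin and interleukin 6 receptors activate, was at 225, 162 and 288 CPM in tumour bearing mice, against 103, 138 and 106 CPM in untreated mice (0.96 ± 0.26, adjusted p = 0.418). Socs3, the feedback inhibitor that STAT3 induces, was at 20.2, 41.02 and 36.8 CPM in tumour bearing mice, against 8.52, 4.22 and 15.4 CPM in untreated mice (1.80 ± 0.49, adjusted p = 0.418). These were the 2 genes called by DESeq2, and the groups of both did not overlap. Irs1, the insulin receptor substrate, was at 103, 11.6 and 46.9 CPM in tumour bearing mice, against 6.61, 22.3 and 11.7 CPM in untreated mice, where the groups overlapped. Of 32 HIF1 target gene IDs, the pathway of low oxygen, 0 were without overlap in the higher direction and 1 in the lower. At an unadjusted p under 0.05, 0 were higher and 1 lower, and DESeq2 and edgeR called 0. The median log2 fold change was 0.32 against all 3 untreated libraries and -0.06 against untreated 4 alone. Without tumour bearing 21 it was 0.06.

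No gene passed the edgeR test in the lower direction, and most of the 501 lower genes of DESeq2 were highest in untreated 7 or 10. The highest untreated library was untreated 7 for 244 of them, untreated 10 for 244 and untreated 4 for 13, whereas over all genes tested these libraries were highest for 5702, 6151 and 6023 genes. Of the 501, 216 had groups that did not overlap and 146 were more than 2-fold higher in untreated 4 than in the mean of the tumour bearing mice. In 376, EV 36 and EV 41, which also held ovary transcripts, were both more than 2-fold above EV 37. The ovary list had a median log2 fold change of -7.79 and -0.08 against untreated 4 alone. Smooth muscle genes (-2.28 and 0.50) and oviduct and uterus epithelium (-5.30 and 0.11) were negative against all 3 untreated libraries and positive against untreated 4. The oviduct and uterus list summed to 126, 146 and 165 CPM in tumour bearing mice, against 94.6, 3075 and 1115 CPM in untreated mice. The part of these tissues in the lower genes was not tested beyond the values against untreated 4.

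Outside the muscle, ovary and smooth muscle lists 504 genes with a mean of at least 5 CPM were lower in every tumour bearing library than in any untreated one, 262 of them at an unadjusted p under 0.05 and 88 called by DESeq2. The 12 with the smallest p were Zfp932, Cldn1, Zfp219, Cbarp, Acrbp, Amt, Aard, Kifc2, Sp6, Samd10, Zfp971 and Marveld3. Zfp932, a zinc finger protein, was at 3.75, 5.56 and 3.42 CPM in tumour bearing mice, against 9.53, 12.7 and 13.7 CPM in untreated mice, a log2 fold change of -1.50 ± 0.30 (SE, adjusted p = 0.214). Cldn1, a claudin of tight junctions, was at 8.57, 7.71 and 6.25 CPM in tumour bearing mice, against 17.5, 19.8 and 19.9 CPM in untreated mice (-1.34 ± 0.30, adjusted p = 0.322). Against untreated 4 alone the values were -1.17 and -1.22. Zfp219, a zinc finger factor, was at 46.4, 51.4 and 40.1 CPM in tumour bearing mice, against 64.9, 87.2 and 81.7 CPM in untreated mice. Zfp971, another zinc finger protein, was at 26.5, 27.1 and 21.9 CPM in tumour bearing mice, against 34.7, 41.4 and 43.8 CPM in untreated mice. Both differed less between groups. Amt, the aminomethyltransferase of the glycine cleavage system, was at 6.55, 5.68 and 4.88 CPM in tumour bearing mice, against 12.8, 30.7 and 10.6 CPM in untreated mice. Acrbp, an acrosin-binding protein, was at 3.64, 6.55 and 3.37 CPM in tumour bearing mice, against 16.3, 7.85 and 19.8 CPM in untreated mice. Kifc2, a kinesin, was at 4.14, 6.03 and 4.10 CPM in tumour bearing mice, against 12.4, 7.71 and 16.6 CPM in untreated mice. In the last 2 untreated 7 was the lowest untreated library. Cbarp, a regulator of voltage-gated calcium channels, was at 3.64, 4.40 and 4.83 CPM in tumour bearing mice, against 7.57, 12.998 and 18.9 CPM in untreated mice. These 8 genes had log2 fold changes of -1.70 to -0.67 with untreated libraries within 3-fold of each other.

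In the other 4 of the 12, untreated 4 lay nearer to the tumour bearing mice than untreated 7 did. Sp6, a transcription factor of epithelia and teeth, was at 0.0560, 0.116 and 0.0977 CPM in tumour bearing mice, against 0.673, 32.6 and 0.830 CPM in untreated mice. Marveld3, a tight junction protein, was at 0.224, 0.521 and 0.586 CPM in tumour bearing mice, against 0.785, 28.6 and 3.81 CPM in untreated mice. Aard, a small protein rich in alanine and arginine, was at 0.504, 1.16 and 0.439 CPM in tumour bearing mice, against 1.40, 24.4 and 19.1 CPM in untreated mice. Samd10, a protein with a SAM domain, was at 0.952, 1.91 and 1.61 CPM in tumour bearing mice, against 3.03, 13.1 and 15.4 CPM in untreated mice. Untreated 10 was near untreated 7 in Aard and Samd10, and far below it in Sp6 and Marveld3. The 10 further lower genes by DESeq2 p were Prss35, Kcnk1, Acsbg1, Prss8, Arhgef19, Tmem184a, Fut9, Hoxb3, Eps8l1 and Zfp750, of which all but Hoxb3 had the same shape. Acsbg1, an acyl-CoA synthetase of brain and steroid-making gonads, was at 1.06, 0.753 and 0.928 CPM in tumour bearing mice, against 1.35, 5.91 and 898 CPM in untreated mice. Fut9, a fucosyltransferase, was at 0, 0.0579 and 0 CPM in tumour bearing mice, against 0.168, 39.3 and 1.62 CPM in untreated mice. Acsbg1 was thus highest in untreated 10, the library with ovary transcripts, and Fut9 in untreated 7. Besides smooth muscle, untreated 7 held the highest untreated sums of the oviduct and uterus (3075 CPM), mammary epithelium (1951 CPM) and mesothelium (3728 CPM) lists. Of the mesothelium list, Krt7 (1342 CPM) and Upk1b (1425 CPM) were high in untreated 7. Muc16 and Lrrn4 were lower there (13.3 and 13.6 CPM) than in untreated 4 (17.4 and 20.5 CPM). The log2 fold changes of 12 of the 16 members were positive, so the sum does not show that untreated 7 was rich in mesothelium. Prss35, a protease of ovarian follicles, was at 0.224, 0.0579 and 0.195 CPM in tumour bearing mice, against 0.336, 22.1 and 271 CPM in untreated mice. Zfp750, an epidermal differentiation factor, was at 0.168, 0.0579 and 0 CPM in tumour bearing mice, against 0.280, 52.4 and 2.15 CPM in untreated mice. Hoxb3, a homeobox gene of body patterning, was the exception, at 5.60, 7.07 and 5.81 CPM in tumour bearing mice, against 12.2, 13.6 and 10.2 CPM in untreated mice (-0.96 ± 0.27, edgeR adjusted p = 0.418).

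**Figure D4:**
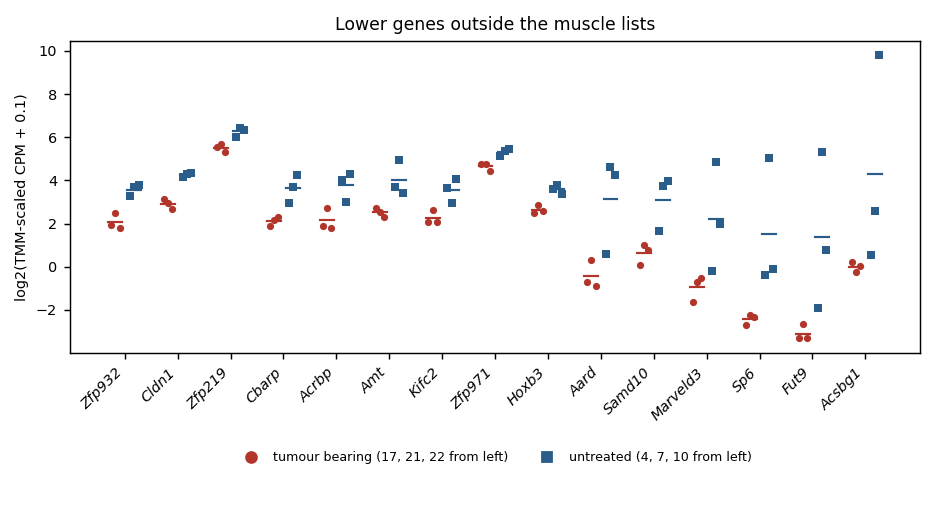
Level of 15 genes that were lower in tumour bearing mice, as log2(CPM + 0.1), with 1 point per mouse (tumour bearing circles left, untreated squares right) and lines for the group means. From Zfp932 to Hoxb3 the 3 untreated squares lie together; from Aard to Acsbg1 untreated 4, the first square, lies near the tumour bearing mice, and none of the 15 passed the edgeR test.

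The lists fell into 3 kinds when set against untreated 4 alone. Muscle, neutrophil, macrophage, acute phase, endothelial, complement and thermogenic lists kept a positive median. Adipocyte, lipolysis and oxidative phosphorylation lists changed sign, and the ovary list and the oviduct and uterus list lay at -0.08 and 0.11 on the log2 scale. Fibroblast and collagen genes had a larger median against untreated 4 (1.11) than against all 3 (0.47). Groups did not overlap for 3 of 24 members, beside 5.64% of all genes. Fbn1, the microfibril protein fibrillin 1, was at 232, 117 and 423 CPM in tumour bearing mice, against 35.6, 93.1 and 123 CPM in untreated mice, lowest in untreated 4 and overlapping through tumour bearing 21.

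The remaining lists held 0 genes called by edgeR. The nuclear-encoded TCA cycle genes (0.66 and -0.23) and the mitochondrially encoded mRNAs (0.46 and -0.68) changed sign between the 2 comparisons, where each pair again gives the median log2 fold change against all 3 untreated libraries and against untreated 4. The mitochondrially encoded mRNAs were at -0.34 without tumour bearing 21, and their sums were 50746, 123980.0 and 40634 CPM in tumour bearing mice, against 115389, 22001 and 25307 CPM in untreated mice. Interferon-stimulated genes (0.44 and 0.12), insulin signalling (0.66 and 0.25) and mesothelium (0.37 and 0.02) had positive medians in both, although the interferon-stimulated median was -0.75 with the inferred batches as a term. Cell cycle genes were at -1.80 and 0.32, mammary epithelium at -3.62 and 0.55, and ribosomal proteins at -0.33 and 0.35. Nerve and Schwann cell genes were at -0.84 and 0.50, erythroid genes at 0.58 and -0.20 and cholesterol synthesis at -0.61 and -0.00. The circadian clock (-0.13 and -0.06), amino acid and ER stress (0.06 and -0.07) and VHL, HIF and prolyl hydroxylase genes (0.09 and -0.02) lay near 0. Of 16 lymphocyte genes 2 had enough counts to be tested, in hosts that lack these cells. These 2, Cd79b and Cd4, were higher at an unadjusted p under 0.05, beside 3.53% of all genes. Their median was 1.83, and 1.16 against untreated 4. Cd79b was at 1.57, 4.69 and 1.37 CPM in tumour bearing mice, against 1.01, 0.242 and 0.566 CPM in untreated mice. Cd4 was at 3.64, 13.5 and 9.57 CPM, against 4.48, 2.70 and 1.66 CPM, with groups that overlapped. Of 18 genes the study names, a list that is not independent of these libraries, 3 were called higher by DESeq2, beside 1.35% of all genes.

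**Figure D5:**
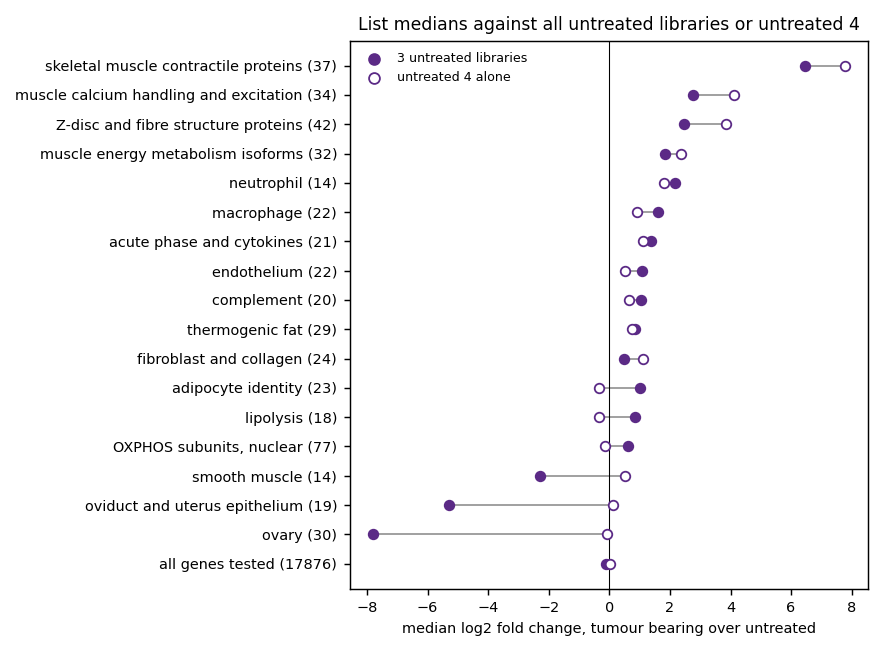
Median log2 fold change (tumour bearing over untreated) of 17 gene lists and of all genes tested, with the number of members tested in parentheses, against all 3 untreated libraries (filled points) and against untreated 4 alone (open points). Muscle lists lie to the right in both, while the ovary list lies at -7.79 against all 3 and at -0.08 against untreated 4.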

How the data were processed

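The authors deposited, per gene and library, expected counts (estimated counts that need not be whole) and columns named TPM. Per the study's methods reads were trimmed with SeqPrep and Sickle, aligned with HISAT2, assembled with StringTie and quantified with RSEM, whereas the submitters' notes list Bowtie 0.12.2 with mm8 and mm9. The annotation used was not given in these sources. The deposited TPM columns were treated as a score, since genes with 0 counts shared one value in 99.7 to 100% of cases within, and in 0 to 1.49% between, 3 sets of libraries (tolerance 1e-06), which were taken as inferred batches: untreated 7, tumour bearing 17 with 22, and the other 6.

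After rounding, a quasi-likelihood model of edgeR 4.0.16 (R 4.3.3) was fitted to the counts (filterByExpr, TMM factors from 0.756 to 1.32, 1 term for group, all 9 libraries), with Benjamini-Hochberg adjustment and a threshold of 0.05. The biological coefficient of variation was 62.8%. Standard errors are the absolute log2 fold change over the square root of F. Genes without counts in the untreated mice were compared with a limit of 3 counts in each library, which covers counting error only. The script was tested on simulated data. DESeq2 1.42.0 gave no adjusted p for 482 genes and was an alternative, as were other scalings and filters, fewer libraries, batches as a term, and limma 3.58.1 on log2(score + 1). Gene IDs were matched to the reference gene table (52093 of 53700). Genes were named by rule: called genes, the 12 per direction by edgeR p and 10 further by DESeq2 p (mean of at least 5 CPM, groups apart, without predicted genes), and up to 4 members per list by p. Some genes that the rule names are not reported here. The 41 gene lists and the comparison were chosen with earlier results of these data known. EV counts of gene IDs that share a symbol can belong to another ID, and a fit without these IDs was run.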

Additional observations from a re-analysis of the deposited data

How the results depend on the processing

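Over the alternatives, all 39 called genes kept a positive log2 fold change. The number called higher was 242 with DESeq2 on 9 libraries and 206 on the 6 compared ones, 8 to 38 when 1 library was left out, 4 with inferred batches as a term, 1 with limma on the deposited score (Cxcl13), and 0 both without the ovary-holding libraries (429 at an unadjusted p under 0.05) and with untreated 4 alone (561). The number called lower was 501 and 255 with DESeq2 on 9 and on 6 libraries, 0 to 1 when 1 library was left out (Lsr, a lipoprotein receptor, without untreated 4, at -2.55 on the log2 scale) and 1 without untreated 4. Outside the muscle lists the 7 calls became 154 and 118 with DESeq2 on 9 and 6 libraries, 1 without scaling, 1 with the 6 libraries, 1 with limma, 0 with the batch term, without the ovary-holding libraries or with untreated 4 alone, and 0 to 5 when 1 library was left out. The 32 muscle calls became 88 with either DESeq2 fit, 4 with the batch term, 0 with limma, without the ovary-holding libraries or with untreated 4 alone, and 8 to 35 when 1 library was left out. Without the filter on low counts 49 genes were called higher, and without scaling 26, where the median of all genes was -0.45. The cause of these changes was not tested.

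For single genes the direction turned with limma on the score for Pnoc (-0.24), Acrbp (0.0116), Amt (0.00426), Sp6 (0.32), Zfp971 (0.16), Marveld3 (0.26), Arhgef19 (0.00202), Prss8 (0.25), Fut9 (0.24), Kcnk1 (0.11), Lsr (0.0147), Eps8l1 (0.23), Tmem184a (0.22) and Zfp750 (0.34). It also turned with untreated 4 alone for Lsr (0.23) and Adipoq (-0.27), with the batch term for Lep (-0.54), and without tumour bearing 21 for Fosb (-0.38, against up to 4.37 without another library). Prex1 kept its call in 5 of 21 alternatives, with log2 fold changes from 1.2 to 1.93. No paired analysis was possible because the groups compared share no replicate numbers.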

Other observations

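The 3 libraries of EV-injected mice (36, 37 and 41) belong to no comparison above, and their levels are given as values. The contractile list, which summed to 3563, 9135 and 4752 CPM in tumour bearing mice 17, 21 and 22, summed to 344, 278 and 350 CPM in EV-injected mice. Prex1 was at 31.3, 46.6 and 36.6 CPM in tumour bearing mice and at 18.1, 15.4 and 14.6 CPM in EV-injected mice, so the highest EV library lay below the lowest tumour bearing one. Gfpt2 was at 43.1, 64.7 and 71.1 CPM in tumour bearing mice and at 33.5, 28.7 and 19.8 CPM in EV-injected mice. Selp, P-selectin, was at 28.3, 36.4 and 49.4 CPM in tumour bearing mice and at 8.13, 10.7 and 5.40 CPM in EV-injected mice. In both genes every EV library lay below every tumour bearing one. Pik3ap1 was at 26.5, 70.6 and 32.7 CPM in tumour bearing mice and at 15.04, 15.2 and 12.6 CPM in EV-injected mice. Among the lower genes, Zfp932 was at 3.75, 5.56 and 3.42 CPM in tumour bearing mice and at 12.3, 11.4 and 12.3 CPM in EV-injected mice. Cldn1 was at 8.57, 7.71 and 6.25 CPM in tumour bearing mice and at 27.7, 13.7 and 25.1 CPM in EV-injected mice. These differences from the EV group were not tested.

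Cxcl13, a chemokine that draws B cells and is made by stromal and serosal cells, was chosen after its values were seen, because tumour bearing 21 held 941 CPM of it. Its level was 18.6, 941 and 11.4 CPM in tumour bearing mice, against 12.4, 3.46 and 1.43 CPM in untreated mice, and 23.4, 7.58 and 3.17 CPM in EV-injected mice.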
